A study of Mus musculus with 33 samples.

Results

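The 8 genes Bcl6, S1pr2, Mybl1, Rgs13, Fas, Gcsam, Il21 and Basp1 were followed as genes of the germinal centre. They were chosen by symbol, and each matched 1 of the 56414 rows of the normalised expression table. Tumor-free C57Bl/6 mice were given nicotinamide (NAM, a vitamin B3 compound), at 0.5% in their water, over 1, 3 or 14 days, or were left untreated. The labels give its replacement as every 7 days, whereas the study's methods give a shorter interval. Poly(A) RNA was sequenced from 33 libraries. The spleen label is carried by 20 of these, 5 in each of the 4 groups. The other 13 carry the lymph node label, of which 3 were untreated, 2 came after 1 day, 4 after 3 days and another 4 after 14 days. No transgene or deletion was carried by any group, and the age and sex of the animals are not given in the labels. The labels do not say that each library came from a different mouse, so the p-values measure the spread between these libraries.

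The germinal centre is the structure inside a B cell follicle where activated B cells divide, mutate their antibody genes and are selected by T follicular helper cells. BCL6 is the transcriptional repressor that both of these cell types need. IL-21 is a main helper signal from the T cells. Spleens and lymph nodes of animals kept free of infection usually hold few germinal centres, except where gut contents drain.

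The tissue labels and the markers of the tissues disagreed. Glycam1, a mucin of the high endothelial venules of lymph nodes, had a normalised read count (reads divided by the size factor of the library) of 108167 to 214211 in the libraries labelled spleen and 1.6 to 12.4 in those labelled lymph node. Spic, a transcription factor of red pulp macrophages in the spleen, had 774 to 1295 in the former and 6117 to 10491 in the latter. All 33 libraries carried the marker pattern opposite to their label, and the libraries are therefore called only by their labels. The libraries held 18325061 to 54830743 reads under the spleen label, with the deepest group at 3 days, and 30424968 to 46733974 reads under the lymph node label. Under the spleen label the 3 day libraries held 43632016 to 54830743 reads, each deeper than every untreated one (18325061 to 31486631). Depth and NAM therefore cannot be told apart at 3 days there, which holds for the Fas and Bcl6 results below. The sets were scaled separately, and the median gene differed by 0.16 on the log2 scale between untreated libraries of the 2 labels, so no level was tested across labels.

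The promoter windows below are RefSeq sequence of build GRCm38.p6, running 5′ to 3′ from 250 bases before to 50 bases after a start. They were available for 7 of the 8 genes, in 8 windows, since Bcl6 has 2. The first pair is shown because BCL6 and the STAT factors, among them STAT3 downstream of IL-21, bind related sites of the type TTCNNNGAA, which reads the same on both strands. Matches are in capitals. The inner Bcl6 window at chr16:23981234-23981533, minus strand, lies inside the Bcl6 gene, and the Fas window at chr19:34290409-34290708, plus strand, spans the start of Fas.
Bcl6, inner start: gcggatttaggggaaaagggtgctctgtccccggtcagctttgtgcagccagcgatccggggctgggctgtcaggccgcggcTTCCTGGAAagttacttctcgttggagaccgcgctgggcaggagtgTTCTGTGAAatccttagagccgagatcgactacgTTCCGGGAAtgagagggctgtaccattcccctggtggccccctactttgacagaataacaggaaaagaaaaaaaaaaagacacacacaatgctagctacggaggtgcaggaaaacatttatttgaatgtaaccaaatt
Fas: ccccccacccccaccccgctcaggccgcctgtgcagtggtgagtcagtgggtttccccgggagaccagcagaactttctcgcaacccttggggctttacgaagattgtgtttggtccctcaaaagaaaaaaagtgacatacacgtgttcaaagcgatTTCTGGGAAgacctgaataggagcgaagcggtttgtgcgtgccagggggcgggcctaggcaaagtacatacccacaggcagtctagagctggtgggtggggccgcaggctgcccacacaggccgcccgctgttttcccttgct
The Bcl6 window held 3 matches and the Fas window 1. The outer Bcl6 window at chr16:23988803-23989102 held 1 match, and S1pr2, Rgs13, Gcsam, Il21 and Basp1 held none. Of 32851 promoters of the same length, 8.3% held at least 1 such match. A match describes letters only, and not binding.

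The next 3 windows are shown as examples from the 5 members whose levels were correlated with those of Mybl1, a MYB family transcription factor, across the libraries labelled lymph node. The others are Fas and Il21, and the correlation with Rgs13 did not pass with 2 libraries left out. The MYB core AACNG, or CNGTT where it lies on the other strand, is in capitals. The windows are at chr9:20976744-20977043, minus strand, for S1pr2, chr1:144177323-144177622, minus strand, for Rgs13, and chr16:45610190-45610489, plus strand, for Gcsam.
S1pr2: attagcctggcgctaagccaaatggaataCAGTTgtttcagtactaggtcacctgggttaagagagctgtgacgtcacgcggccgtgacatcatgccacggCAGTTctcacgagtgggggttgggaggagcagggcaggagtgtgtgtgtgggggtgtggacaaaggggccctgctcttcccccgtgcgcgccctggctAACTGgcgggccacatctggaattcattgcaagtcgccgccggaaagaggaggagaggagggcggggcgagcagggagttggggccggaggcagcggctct
Rgs13: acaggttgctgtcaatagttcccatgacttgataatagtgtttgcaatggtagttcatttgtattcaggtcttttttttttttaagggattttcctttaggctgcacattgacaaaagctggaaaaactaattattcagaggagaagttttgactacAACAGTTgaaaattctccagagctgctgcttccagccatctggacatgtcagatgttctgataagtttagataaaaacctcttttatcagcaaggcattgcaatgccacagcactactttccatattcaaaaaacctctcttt
Gcsam: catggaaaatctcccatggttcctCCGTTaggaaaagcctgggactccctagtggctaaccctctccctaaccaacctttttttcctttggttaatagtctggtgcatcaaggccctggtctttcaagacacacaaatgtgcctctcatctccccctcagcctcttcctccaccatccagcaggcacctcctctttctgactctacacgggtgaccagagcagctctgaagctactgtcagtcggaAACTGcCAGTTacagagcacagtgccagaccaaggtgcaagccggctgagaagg
S1pr2 and Gcsam held 3 matches each and Rgs13 held 2, which overlap in its run of 7 capitals. Il21 and each Bcl6 window held 1, Fas held 2 and Basp1 held 0. This core was found in 80.3% of the 32851 promoters, so its presence does not set these genes apart. The Mybl1 window is not shown here.

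In the mm10 coordinates of the table, Bcl6 lies at chr16:23965051-23988637, minus strand, and its exons overlap Gm37419 on the other strand. Il21, at chr3:37222759-37232636, minus strand, overlaps the antisense gene Gm12534. Whether reads were counted by strand is not given in the sources used here, so reads of these overlapping pairs could not be told apart. Mybl1 lies at chr1:9667411-9700209 and Rgs13 at chr1:144138667-144177372, both on the minus strand. S1pr2 lies at chr9:20965952-20976793, minus strand, Basp1 at chr15:25363277-25413764, minus strand, Gcsam at chr16:45610422-45622867, plus strand, and Fas at chr19:34290659-34327770, plus strand.

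The levels of each gene in all 33 libraries separated the members by their spread. Bcl6, Fas, Gcsam and Basp1 varied little, with coefficients of variation of 9.9% to 21.2% over the libraries of a label. Mybl1, Rgs13 and Il21 varied widely: Mybl1 spanned 9.0-fold over the libraries labelled spleen (20.8 to 187, median 66.0) and 6.1-fold over those labelled lymph node (39.2 to 240.2, median 105). Il21 was the least abundant in reads, with 3 to 34 reads in a library labelled spleen and 16 to 149 in one labelled lymph node. Under the spleen label Mybl1 had 12 to 155 reads and Rgs13 had 24 to 168. The part of low read numbers in the spread of these 3 genes was not tested. S1pr2 was steady under the spleen label, at 14.0%, and less so under the lymph node label, at 32.7%. Counting lengths are not given, so levels were not compared between genes.

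**Figure D1:**
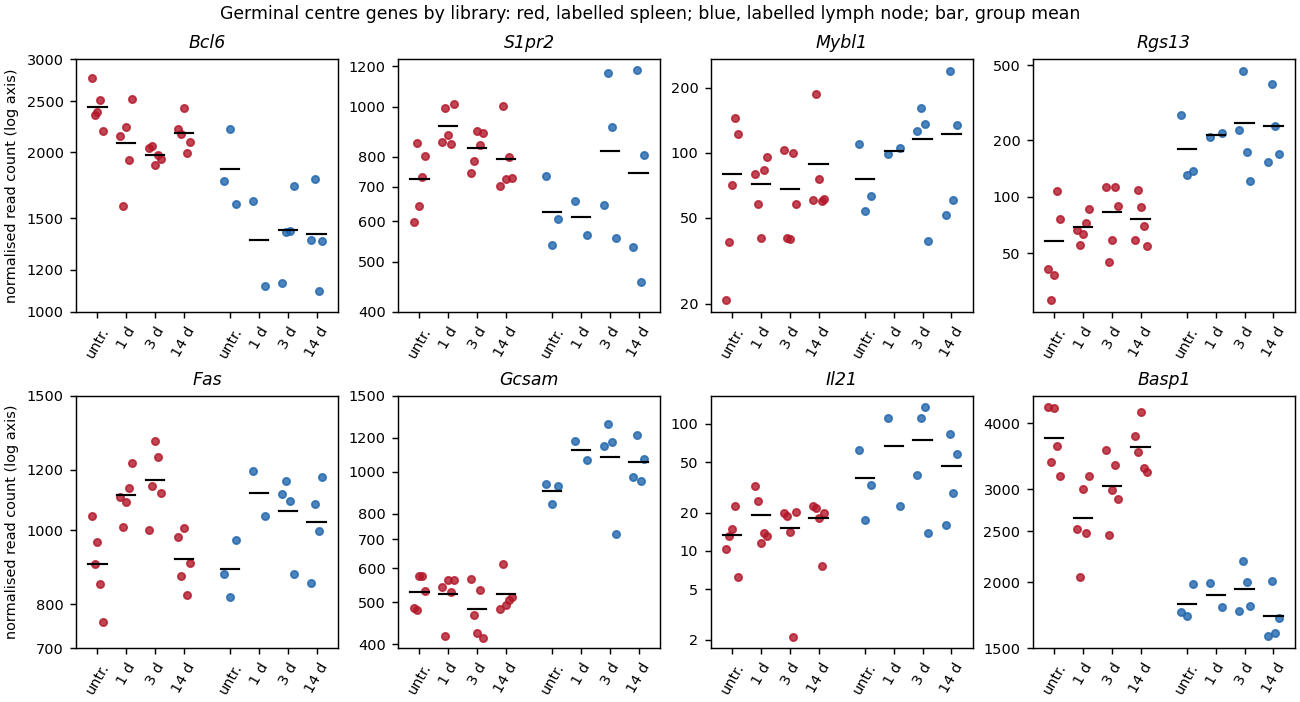
Normalised read count on log axes for each of the 8 genes, with 1 point per library, red for libraries labelled spleen and blue for those labelled lymph node, and a bar at the group mean. Basp1 at 1 day under the spleen label lies below all 5 untreated libraries, whereas Mybl1, Rgs13 and Il21 overlap widely between groups.

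The first comparison asked which genes moved after 1 day of NAM under the spleen label. S1pr2 and Fas were higher and Basp1 was lower, 3 of 8 genes, beside 16.6% of the 18243 genes tested, 8.56% higher and 8.05% lower (limma, adjusted p under 0.05). Basp1 encodes a membrane-bound protein that binds calmodulin and the actin skeleton. Its normalised counts were 4296, 3388, 4273, 3631 and 3180.1 untreated and 2529, 2047, 3004, 2479 and 3178 at 1 day. All 5 treated libraries were below all 5 untreated ones, the highest of them by a small margin, a separation in either direction seen for 11.9% of genes. The mean went from 3754 ± 510 to 2648 ± 450 (SD, n = 5 each), and the log2 fold change was -0.51 (SE 0.12, limma adjusted p = 0.00813).

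S1pr2, the receptor that holds germinal centre B cells in the middle of the follicle, had counts of 597, 852, 642, 731 and 802 untreated. At 1 day its counts were 855, 994, 883, 847 and 1014, and 4 of the 5 were above every untreated library. The mean rose from 725 ± 106 to 919 ± 79.6 (SD, n = 5 each), or by 0.35 on the log2 scale (SE 0.11, limma adjusted p = 0.0295). The call did not hold with a B cell marker mean as covariate (0.27, adjusted p = 0.0691), with library weights (0.23, adjusted p = 0.0968) or in a fit of only the 2 groups (adjusted p = 0.0523). It was also lost without untreated replicate 1 or 3 or without 1 day replicate 2 or 5, with adjusted p-values of 0.0157 to 0.0849 over all libraries left out in turn.

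Fas, the death receptor that is high on germinal centre B cells and also present on other activated lymphocytes, had counts of 1042, 902, 965, 850.0 and 757 untreated. At 1 day they were 1104, 1009, 1087, 1135 and 1225, with 4 of the 5 above every untreated library. The mean rose from 903 ± 109 to 1112 ± 78.4 (SD, n = 5 each), or by 0.31 on the log2 scale (SE 0.089, limma adjusted p = 0.0236). At 3 days the counts were 1002, 1143, 1307, 1246 and 1119, again with 4 above every untreated library. The log2 fold change was then 0.37 (SE 0.089, adjusted p = 0.0239), and Fas was the 1 member of 8 called at 3 days, beside 5.55% of genes, 2.82% higher and 2.74% lower. Both calls were lost when some single libraries were left out, with adjusted p-values reaching 0.0700 at 1 day (untreated replicate 4 or 5, or 1 day replicate 5) and 0.0857 at 3 days (untreated replicate 4 or 5, or 3 day replicate 2, 3, 4 or 5). In fits of only the 2 groups the limma adjusted p was 0.0503 at 1 day and 0.0701 at 3 days.

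After 14 days Fas was among the untreated values, at 979.8, 869.9, 1006, 823 and 906. Basp1 was at 3791, 3529.7, 4202, 3298 and 3236, all 5 within the untreated range. The fall of Fas from 1 to 14 days passed the limma test, by 0.28 on the log2 scale (SE 0.089, adjusted p = 0.0486), as did the rise of Basp1 by 0.46 (SE 0.12, adjusted p = 0.0209), 2 of 8 members beside 10.6% of genes. From 3 to 14 days the change of Fas was -0.34 with a limma adjusted p of 0.0604, and 0 of 8 members were called, beside 1.05% of genes. Against untreated, 0 of 8 members and 0% of genes were called at 14 days by limma, edgeR called 0 members and DESeq2 called 0. At an unadjusted p under 0.05 the limma counts were 0 members and 510 of 18243 genes, or 2.8%.

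The estimates for Bcl6 were below 0 at each duration without passing the test. Untreated libraries labelled spleen had counts of 2762, 2356, 2388, 2508 and 2191, and those at 3 days had 2036, 2059, 1889, 1978 and 1942. All 5 treated libraries were below all untreated ones at 3 days, beside 5.06% of genes that separated in either direction. The log2 fold change was -0.24 at 1 day (SE 0.093, limma adjusted p = 0.0834), -0.30 at 3 days (SE 0.093, adjusted p = 0.0636) and -0.16 at 14 days (SE 0.093, adjusted p = 1). The 3 day difference passed with DESeq2 (-0.30, adjusted p = 0.0291), with library weights (-0.28, adjusted p = 0.00387) and with the B cell covariate (-0.24, adjusted p = 0.0410), and did not pass with edgeR (-0.29, adjusted p = 0.0729). It also passed without 3 day replicate 1 or without 1 day replicate 2 or 5, and the 1 day difference passed without 1 day replicate 5 (limma adjusted p = 0.0218).

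Mybl1, Rgs13, Gcsam and Il21 did not pass the limma test at any duration under the spleen label. Rgs13, which shortens chemokine receptor signals, had the largest of their estimates at 3 days, 0.59 with a 95% interval of -0.071 to 1.25. The interval of Mybl1 ran from -0.85 to 1.05 at 1 day and that of Il21 from -0.52 to 1.49, so a rise of 2-fold in either lay inside the interval. Gcsam, an adaptor of B cell receptor signalling and cell movement, was measured more tightly, at -0.02 with an interval of -0.24 to 0.20 at 1 day. Over the 4 groups together, Fas (adjusted p = 0.0107) and Basp1 (adjusted p = 0.0199) passed the limma F test, 2 of 8 beside 12.4% of genes. Among libraries labelled lymph node, 0 of 8 passed it, beside 1.76%.

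**Figure D2:**
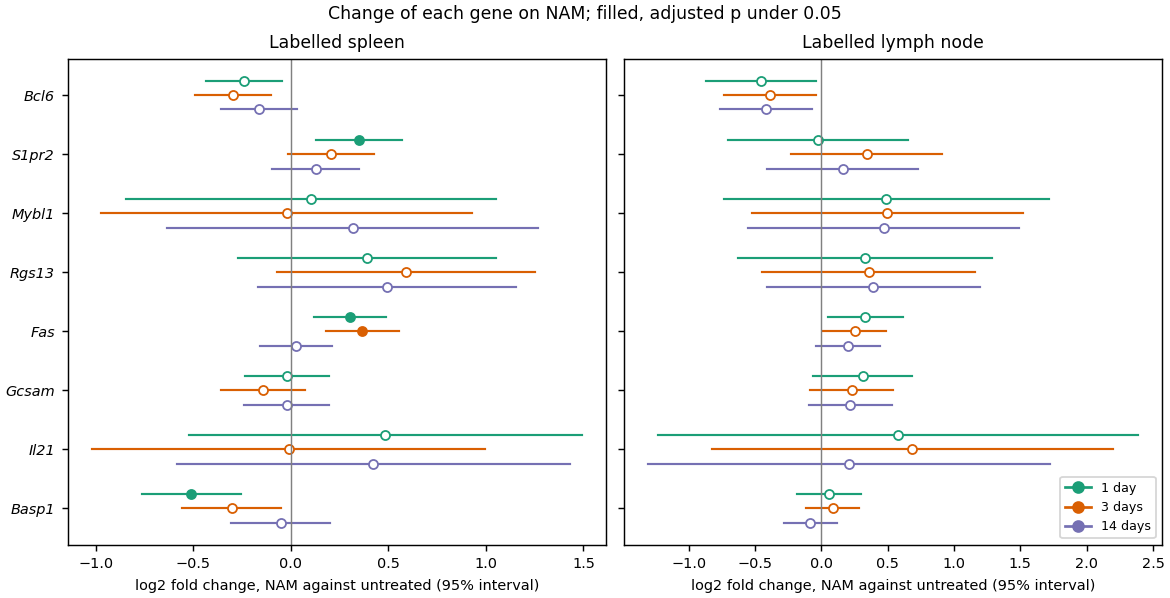
Log2 fold change of each gene on NAM against untreated, with the 95% interval from limma, for 1, 3 and 14 days and for both labels, with filled points for an adjusted p under 0.05. Filled points are those of S1pr2, Fas and Basp1 at 1 day and Fas at 3 days under the spleen label, and the intervals of Mybl1, Rgs13 and Il21 are the widest.

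The same comparisons in the 13 libraries labelled lymph node gave 0 of 8 members past the limma test at 1, 3 or 14 days, beside 1.21%, 1.24% and 0.791% of 18215 genes, and edgeR and DESeq2 also called 0. At an unadjusted p under 0.05 the counts were 2, 2 and 1 members, beside 15%, 14.8% and 11.8% of genes. Bcl6 accounted for 1 of these at each duration. Its counts were 1762, 2211 and 1600.0 untreated, 1615 and 1119 at 1 day, 1134, 1413, 1420.0 and 1730.3 at 3 days and 1365, 1781, 1092 and 1362 at 14 days. At 3 and at 14 days 3 of 4 treated libraries were below every untreated one. The log2 fold changes were -0.45 (SE 0.20, adjusted p = 0.290), -0.39 (SE 0.16, adjusted p = 0.289) and -0.42 (SE 0.16, adjusted p = 0.312).

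Fas was the other member at 1 and 3 days. Its counts were 877, 818 and 969 untreated, 1195 and 1042 at 1 day, 1115, 1160.4, 1090.5 and 875 at 3 days and 854, 1081, 996 and 1173 at 14 days. The log2 fold changes were 0.33 (SE 0.14, adjusted p = 0.255), 0.25 (SE 0.11, adjusted p = 0.313) and 0.20 (SE 0.11, adjusted p = 0.525). Gcsam had 938, 841 and 928 untreated, 1177 and 1065 at 1 day, 1147, 1289, 1172 and 721 at 3 days and 973, 1219.8, 955 and 1069.9 at 14 days. Both Fas and Gcsam at 1 day, and Gcsam at 14 days, lay above all untreated libraries, a separation in either direction seen for 32.6% of genes at 1 day and 11.5% at 14 days. Without 3 day replicate 4, the library with the lowest Gcsam, its 3 day change was 0.41 with a limma adjusted p of 0.0406.

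The change on NAM was also set side by side between the labels. The difference of the changes passed the limma test for 0 of 8 members at each duration, beside 1.69%, 0.735% and 0.14% of 17147 genes. For Basp1 at 1 day the change was -0.51 in the libraries labelled spleen against 0.056 in those labelled lymph node, a difference of -0.57 (SE 0.19, unadjusted p = 0.00666, adjusted p = 0.115). The changes of Fas at 1 day were 0.31 and 0.33, with a difference of -0.027 (SE 0.17, adjusted p = 0.959).

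Single libraries labelled lymph node stood at the ends of the range for several members. At 14 days replicate 2 had the highest Mybl1, 240.2, and S1pr2, 1181, of all 13, and at 3 days replicate 2 had the highest Rgs13, 468, and Gcsam, 1289. At the other end, 3 day replicate 4 had the lowest Mybl1, 39.2, Rgs13, 121, Gcsam, 721, and Il21, 13.8. Il21 was highest in 3 day replicate 3, at 136, and S1pr2 lowest in 14 day replicate 3, at 457. For these 5 genes the untreated libraries lay between the ends.

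Correlations of log2 values between members were computed over the 28 pairs within each label. How often other pairs of genes pass in the same libraries was not computed. The counts below therefore have no share over all genes beside them, and whether they are particular to the members was not tested. Over the 13 libraries labelled lymph node, 14 pairs passed at an adjusted permutation p under 0.05, all 14 positive, and none of them held Bcl6. Their raw permutation p-values ran from 0.00015 to 0.012. Mybl1 and S1pr2 had r = 0.86 (adjusted permutation p = 0.00308) and rho = 0.91 (adjusted permutation p = 0.00252). Mybl1 and Gcsam had r = 0.86 (adjusted permutation p = 0.00308) and rho = 0.81 (adjusted permutation p = 0.0084). Both pairs kept their call without the 2 libraries most distant from 1 gene's median, that of the gene named earlier in the opening list of members. This gene was S1pr2 for the first pair (r = 0.77) and Mybl1 for the second (r = 0.81, adjusted permutation p = 0.037 for each). Mybl1 and Rgs13 had r = 0.77 (adjusted permutation p = 0.00872), which came to 0.61 with 2 libraries left out (adjusted permutation p = 0.108).

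Il21, the T cell cytokine of the set, was correlated with Mybl1, S1pr2, Gcsam, Fas and Basp1 under the lymph node label. Its r was 0.80 with Mybl1 and 0.79 with S1pr2 (adjusted permutation p = 0.00653 for each), with rho of 0.81 and 0.84 (adjusted permutation p = 0.0084 for each). With 2 libraries left out, its correlations with Gcsam (r = 0.69, adjusted permutation p = 0.0764) and Fas (r = 0.62, adjusted permutation p = 0.108) did not pass. Fas and Gcsam had r = 0.83 (adjusted permutation p = 0.00429) and rho = 0.81 (adjusted permutation p = 0.0084), and r = 0.85 with 2 libraries left out in this way (adjusted permutation p = 0.0154). Of the 14 pairs, 7 were called with 2 left out: S1pr2 with Rgs13 fell from r = 0.68 to 0.13 without 14 day replicate 2 and 3 day replicate 2, and that relation rests on them. With each library taken as its deviation from its group mean, 19 pairs passed.

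Over the 20 libraries labelled spleen, 4 of 28 pairs passed, with raw permutation p-values of 0.00015 to 0.00348, again without a share over other gene pairs. Mybl1 and Rgs13 had r = 0.75 (adjusted permutation p = 0.0028) and rho = 0.75 (adjusted permutation p = 0.00364), and r = 0.71 without untreated replicate 1 and 14 day replicate 2 (adjusted permutation p = 0.026). Bcl6 and Basp1 had r = 0.74 (adjusted permutation p = 0.0028) and rho = 0.66 (adjusted permutation p = 0.0145). Mybl1 and Gcsam had r = 0.62 (adjusted permutation p = 0.0244), rho = 0.75 (adjusted permutation p = 0.00364). S1pr2 and Basp1 had r = -0.64 (adjusted permutation p = 0.0212), rho = -0.67 (adjusted permutation p = 0.0145). Of these 4, only Mybl1 with Rgs13 kept its call with 2 libraries left out, and as deviations from the group means S1pr2 with Basp1 came to r = -0.37 (adjusted permutation p = 0.288).

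**Figure D3:**
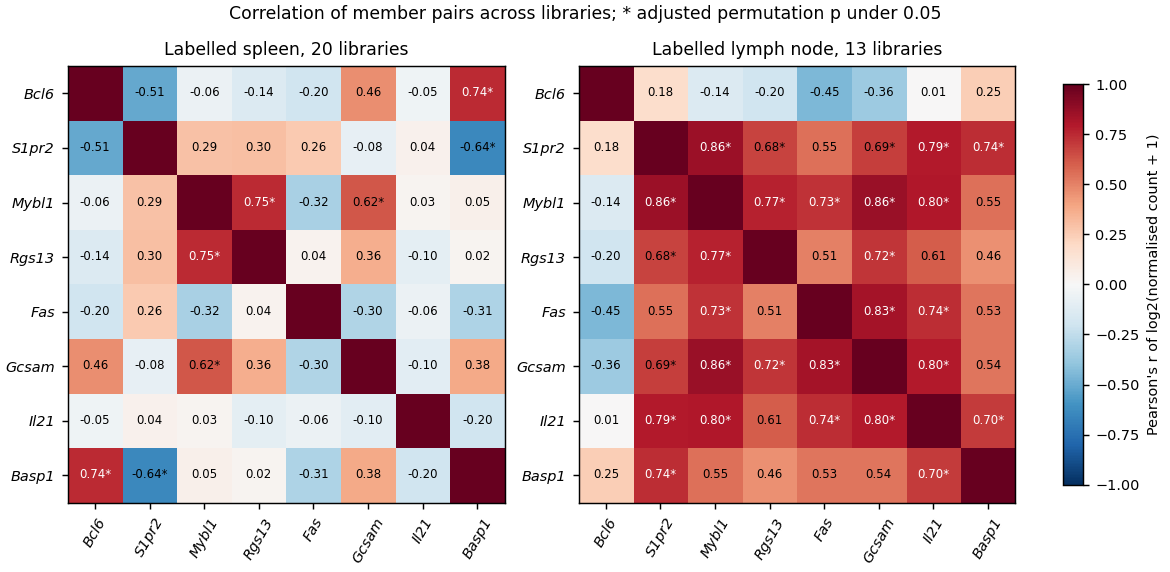
Pearson correlation of the log2 normalised count for each pair of genes, over 20 libraries labelled spleen and 13 labelled lymph node, with a star for an adjusted permutation p under 0.05. A block of 14 starred pairs without Bcl6 is seen under the lymph node label and 4 starred pairs under the spleen label.

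**Figure D4:**
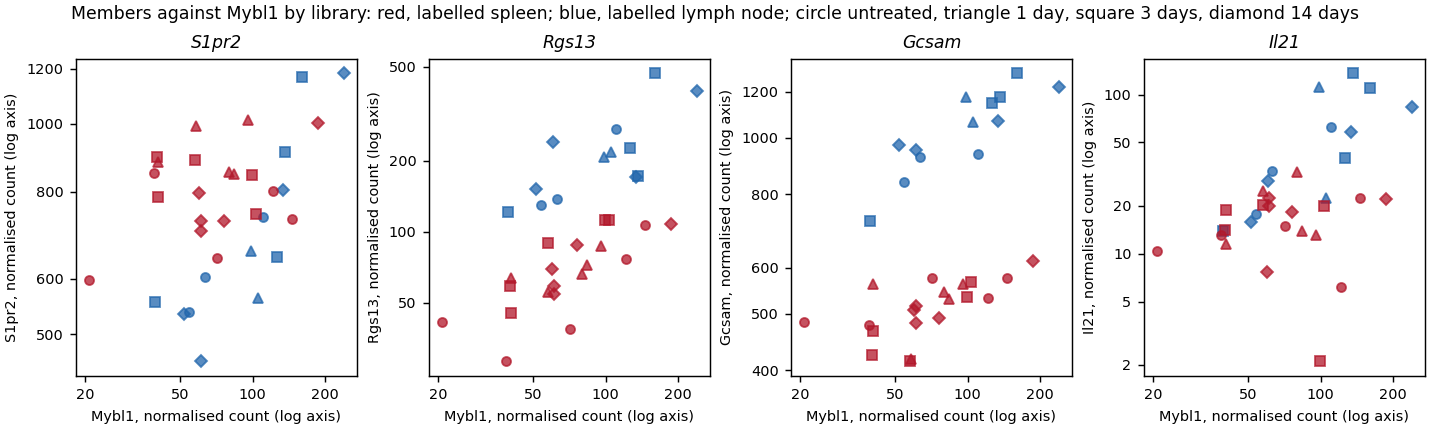
Normalised counts of S1pr2, Rgs13, Gcsam and Il21 against Mybl1 on log axes, with 1 point per library, coloured by label and shaped by duration. Among blue points, the one with the highest Mybl1, 240.2, is a 14 day library and that with the lowest, 39.2, a 3 day library.

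The genes most like each member were listed by Pearson r, as a description without a test, among 15526 rows for libraries labelled spleen and 15327 for those labelled lymph node. Nuggc, a germinal centre GTPase gene, led for Mybl1 (r = 0.94) and for Gcsam (r = 0.94) under the lymph node label. It was also among the 3 highest for Mybl1 (r = 0.82) and for Rgs13 (r = 0.77) under the spleen label, and Mybl1 itself was among the 3 highest for Rgs13 there (r = 0.75).

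For Rgs13 under the lymph node label the list was Hnrnph3, Gm8817 and Ntrk3 (r = 0.89, 0.86 and 0.85), and for Gcsam under the spleen label it was Itga2, Cep55 and Brip1 (r = 0.79, 0.76 and 0.75). Il21 was followed under the lymph node label by Gstt2 (r = 0.92) and by Pdcd1 (r = 0.90), which encodes the receptor PD-1 of T follicular helper and other activated T cells. Among libraries labelled spleen its list was Bcorl1, Ucp1 and Cidea (r = 0.695, 0.66 and 0.63), of which Ucp1 and Cidea are genes of fat cells. For Fas under the spleen label the list was Cnbp, Rpl5 and Sat1 (r = 0.93, 0.92 and 0.92), and for Basp1 it was Fam3c, Lef1 and Rbm38 (r = 0.93 each). Bcl6 was led by Kcnab2 under the spleen label (r = 0.93) and by Mtmr4 under the lymph node label (r = 0.96). S1pr2 was led by Otub2 (r = 0.92) and by Atcay (r = 0.90) in the same order of labels. All points of a correlation share the library's depth and scaling.

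Other genes of the germinal centre were read from lists chosen with earlier results of these data known. Of 19 rows of germinal centre B cell genes under the spleen label at 1 day, 6 were lower and 0 higher by limma, with a median log2 fold change of -0.24, beside 0.0054 over all genes tested and 8.05% of genes called lower. The lowest were the 2 rows of Pax5, the factor that fixes B cell identity, at -0.47 (SE 0.091, adjusted p = 0.00226) and -0.46 (SE 0.12, adjusted p = 0.0115). Pou2af1, which encodes a B cell coactivator needed for germinal centres, followed at -0.44 (SE 0.11, adjusted p = 0.0116), and Foxo1, Spib and Mef2b were the others. At 3 days 4 rows were lower, Pou2af1, Spib, Foxo1 and Irf8, with a list median of -0.15, beside 2.74% of genes called lower, and at 14 days 0 of 19 were called, with a median of -0.014.

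T follicular helper genes had 3 of 13 rows lower and 0 higher under the spleen label at 1 day, and their median was -0.11, beside 8.05% of genes called lower. These were Sostdc1 (-0.77, SE 0.24, adjusted p = 0.0353), Btla (-0.41, SE 0.12, adjusted p = 0.0259) and Cxcr5 (-0.40, SE 0.13, adjusted p = 0.0365), the receptor that guides B and T cells into the follicle. Its ligand Cxcl13, made by follicular stroma, was lower by 0.62 (SE 0.17, adjusted p = 0.0155), as was Fcer2a (-0.40, SE 0.13, adjusted p = 0.0422), the 2 called of 10 rows of follicular dendritic cell genes, read against the same 8.05%. Cxcr5, Btla, Fcer2a, Pax5 and Spib are also found on resting B cells. Sh2d1a (0.39, SE 0.17, limma adjusted p = 0.124) and Pdcd1 (0.31, SE 0.15, limma adjusted p = 0.158), of the T follicular helper list, had estimates above 0 without passing. At 3 and 14 days 0 rows of the T follicular helper and follicular dendritic cell lists were called, beside 5.55% and 0% of genes. None of 12 proliferation genes was called at 1, 3 or 14 days under this label by limma, beside 16.6%, 5.55% and 0% of genes. In the libraries labelled lymph node, 0 of 14 T follicular helper rows and 0 of 10 follicular dendritic cell rows were called at any duration. The shares of all genes called there were 1.21%, 1.24% and 0.791% for 1, 3 and 14 days. Unadjusted limma p was under 0.05 for 5, 3 and 1 T follicular helper rows, beside 15%, 14.8% and 11.8% of genes. For follicular dendritic cell rows the numbers were 2, 3 and 2. The T follicular helper medians were 0.25, 0.12 and 0.12. The summed count of that list was 22534 to 22964 untreated, and every treated library was higher, at 24510 to 25750, without a test.

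Of 11 genes known to be repressed by BCL6, 0 were called after 1 day in the libraries labelled spleen, where the median was -0.085, and 1 at 3 days, where it was -0.053, beside 16.6% and 5.55% of genes called in either direction. That gene was Prdm1, the driver of plasma cell fate, which fell from 174 ± 15.2 to 125 ± 8.38 (SD, n = 5 each), at -0.47 on the log2 scale (SE 0.12, limma adjusted p = 0.0292). Cd69, an early activation marker of lymphocytes, was higher at 1 day under the lymph node label (0.57, SE 0.11, adjusted p = 0.0136), the 1 called of 11, beside 1.21% of genes.

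Cxcr4, the receptor that draws germinal centre B cells to the dark zone and is used by many other leukocytes, was higher at all 3 durations under the lymph node label. Its mean went from 5204 ± 1153 untreated (SD, n = 3) to 15172 ± 1363 at 1 day (n = 2), 8777 ± 1391 at 3 days (n = 4) and 9483 ± 1001 at 14 days (n = 4). The log2 fold changes were 1.56 (SE 0.15, adjusted p = 7.12e-05), 0.76 (SE 0.13, adjusted p = 0.00534) and 0.88 (SE 0.13, adjusted p = 0.00376) by limma. Mef2b, a transcription factor gene acting upstream of Bcl6, was higher at 1 day under this label (0.39, SE 0.086, adjusted p = 0.0349) and lower at 1 day under the spleen label (-0.27, SE 0.065, adjusted p = 0.00841). Called rows there were thus 2 of 19 at 1 day and 1 of 19 at 3 and at 14 days, beside 1.21%, 1.24% and 0.791% of genes. Among proliferation genes there, Rrm2, a subunit of ribonucleotide reductase, was lower at 3 days (-0.72, SE 0.16, adjusted p = 0.0298) and at 14 days (-0.69, SE 0.16, adjusted p = 0.0486), 1 of 12 called at each, beside 1.24% and 0.791% of genes. The list medians were -0.29 and -0.32, with 5 and 7 of 12 at an unadjusted p under 0.05, beside 14.8% and 11.8% of genes. The 5 erythroid markers moved in the same libraries, with medians of -1.73 and -1.17 and 5 of 5 at an unadjusted p under 0.05 at both durations, and their part in the values of the proliferation genes was not tested.

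**Figure D5:**
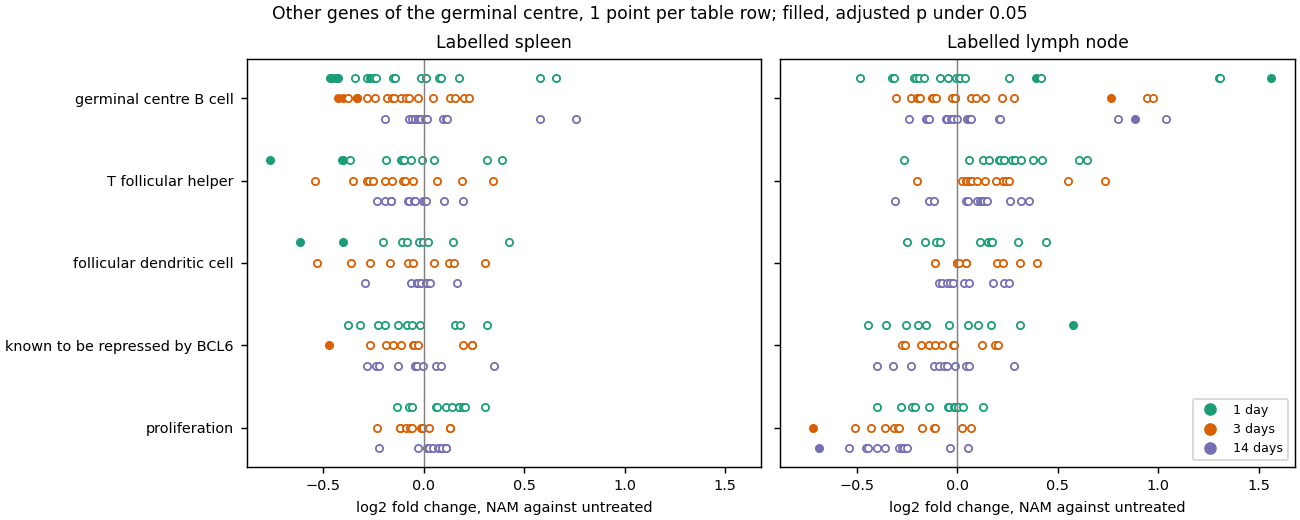
Log2 fold change on NAM against untreated for the rows of 5 lists, by label and duration, with filled points for a limma adjusted p under 0.05. Filled points lie below 0 under the spleen label, and the points of Cxcr4 lie at 0.76 to 1.56 under the lymph node label.

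In bulk tissue, fewer cells of a type and less RNA per cell cannot be told apart. Under the spleen label the summed normalised count of the B cell markers was 69306 to 87639 untreated and 55830 to 78481 at 1 day, with the Pax5 rows as the 2 called of 8, both lower, beside 8.05% of genes, and that of T cell markers was 32424 to 46258 and 27386 to 49435, with 0 of 6 called. In the libraries labelled lymph node, 0 of 8 B cell and 0 of 6 T cell rows were called at any duration, beside 1.21%, 1.24% and 0.791% of genes. With the B cell marker mean as covariate, Basp1 was at -0.42 (limma adjusted p = 0.0161) and Fas at 0.37 (adjusted p = 0.00516) at 1 day. Of the 6 lymph node markers only Madcam1 was called in the libraries labelled spleen, lower at 1 day (-0.69, SE 0.19, adjusted p = 0.0177) and 3 days (-0.89, SE 0.19, adjusted p = 0.0133), 1 of 6 at each, beside 8.05% and 2.74% of genes called lower.

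Markers of neighbouring tissue varied as well. The summed count of 5 adipocyte markers was 18025 to 92770 untreated and 62772 to 272711 at 1 day under the spleen label, with 0 of 5 called, beside 16.6% of genes, and none at 0. Epithelial markers went from 924 to 6518 untreated to 2702 to 14943 at 1 day, with 0 of 5 called, read against the same 16.6%. In libraries labelled lymph node the 5 pancreas markers summed to 1193 to 1268 untreated and to 1093 and 80519 in the 2 libraries at 1 day, with Pnlip and Ctrb1 at 0 in every untreated library. The 5 erythroid markers summed to 1054955 to 2170889 untreated and 237175 to 1012443 at 3 days there, with 3 of 5 called lower, among them Slc4a1 and Alas2, beside 1.24% of genes. At 14 days they summed to 573511 to 853984, with 0 of 5 called, beside 0.791% of genes, and all libraries of both durations were below every untreated one. Ccl21a, a chemokine gene of lymph node stroma that the white pulp also expresses, was the 1 of 5 lymph node markers called there, higher at 1 day (0.90, SE 0.17, adjusted p = 0.0126), beside 1.21% of genes. Hmox1, the 1 called of 4 spleen markers in these lists, was lower at 14 days (-0.79, SE 0.16, adjusted p = 0.0304), beside 0.791% of genes. The part of these tissues in the values of the germinal centre genes was not tested.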

How the data were processed

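The authors deposited a table of normalised read counts per gene for 33 libraries, a linear signal: the reads of a gene over the DESeq2 size factor of its library. Per the labels' processing notes, reads were aligned to mm10 with STAR 2.4.0, and FastQC, Picard, SAMtools and DESeq2 were also used. Libraries were TruSeq mRNA, sequenced in paired ends. Strand use in counting is not given in the sources used here. In each library 1 read was worth a constant amount, and dividing by it gave whole reads for 100% of values at a tolerance of 0.01. Groups came from the sample titles. The numbers of reads, 18325061 to 54830743 per library, limit the precision of genes with few reads.

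The test was limma 3.58.1 (R 4.3.3) on log2 values after adding 1, two-sided, with an intensity trend and the 4 groups of a label in 1 fit. A fold change on this scale understates that of low genes. Genes with a mean under 10 were left out, and Benjamini-Hochberg adjustment ran within each label, over 18243 (spleen) and 18215 (lymph node) genes, with a threshold of 0.05. Changes under the 2 labels were compared in 1 fit over 17147 genes, taking the libraries of the labels as independent. Correlations used 100000 permutations (scipy 1.17.1, numpy 2.4.6, Python 3.11.15), with p-values adjusted over 28 pairs a label.

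All 8 members are named. From each list the 2 largest rises and falls past the threshold were named, and from each member's list the 3 rows with the highest r were read. Other genes in counts of 6 or fewer were named after their values were seen. Some rows that the rule names are not reported here. The members and lists were chosen with earlier results of these data known. Alternatives covered pseudocounts of 0.1 and 5, no filter or a mean of 50, TMM scaling, library weights, a replicate block, a B cell marker covariate, each library left out, only the 2 groups compared, an unadjusted p of at most 0.05 with at least 1.5-fold, and count models fitted to the recovered reads (edgeR 4.0.16, DESeq2 1.42.0).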

Additional observations from a re-analysis of the deposited data

Results flagged for a closer look

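Within each group of 4 or 5 libraries, the lowest and highest value of each member was compared with the rest by Dixon's test at 95%. Of 48 sets, 4 held a library far from the others, and chance alone gives about 1 in 20. All 4 were under the spleen label. At 14 days replicate 2 had 186.5 for Mybl1, with 59.98 to 75.74 in the others, and 614.4 for Gcsam, with 482 to 515.2 in the others. At 1 day replicate 2 had 419.2 for Gcsam, with 529.1 to 563.1 in the others. At 14 days replicate 4 had 7.657 for Il21, with 18.18 to 22.42 in the others. With each library left out in turn, the Mybl1 change at 14 days ran from -0.075 to 0.61, and that of Gcsam at 1 day from -0.055 to 0.058.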

How the results depend on the processing

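Of 642 values for single genes under other settings, 620 kept their direction and their side of the threshold, as did 744 of 792 with 1 library left out. Most of these belong to results not called in the main fit, so the shares say little about the called ones. With 1 of 20 libraries left out, S1pr2 at 1 day under the spleen label lost its call in 4 fits. Fas lost it in 3 fits at 1 day and 6 at 3 days. Basp1 at 1 day under the spleen label stayed past the adjusted threshold in every other fit tried and with each library left out (-0.58 to -0.42), but was short of the rule that asks for 1.5-fold.

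At 1 day under the spleen label the count of 3 members became 2 with library weights, 2 with the B cell covariate, 1 when the fit held only the 2 groups and 0 under the rule of unadjusted p with at least 1.5-fold, and ran from 2 to 3 with each library left out. At 3 days the count of 1 became 3 with library weights, 2 with the B cell covariate, 2 with DESeq2, 0 with only the 2 groups and 0 under the 1.5-fold rule, and ran from 0 to 2 with each library left out. The F test count of 2 became 1 with the B cell covariate. Under the lymph node label at 3 days the count of 0 ran from 0 to 1 with each library left out. Called correlations went from 4 to 1 and from 14 to 7 without the 2 farthest libraries. The causes were not tested, other than that fits on 2 groups hold fewer libraries.

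Signs turned for genes near 0. Under the spleen label Il21 at 3 days came to 0.052 with pseudocount 5, 0.021 with TMM, 0.039 with library weights, 0.18 with edgeR and 0.17 with DESeq2. Mybl1 came to 0.013 at 3 days with TMM, and at 1 day to -0.14 with library weights, -0.18 with edgeR and -0.17 with DESeq2. Gcsam at 1 day came to 0.042 with library weights and 0.012 with the B cell covariate, and Basp1 at 14 days to 0.0062 with library weights. Il21 under the lymph node label at 14 days came to -0.071 with library weights.

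With each library left out, signs also turned, over these ranges. Under the spleen label these were Mybl1 at 1 day (-0.29 to 0.40), 3 days (-0.41 to 0.27) and 14 days (-0.075 to 0.61), Gcsam at 1 day (-0.055 to 0.058) and 14 days (-0.081 to 0.011), Fas at 14 days (-0.035 to 0.080) and Il21 at 3 days (-0.23 to 0.51). Under the lymph node label they were S1pr2 at 1 day (-0.14 to 0.094) and 14 days (-0.093 to 0.36), Il21 at 1 day (-0.55 to 1.71) and 14 days (-0.23 to 0.65), Basp1 at 1 day (-0.020 to 0.13) and Rgs13 at 3 days (-0.013 to 0.69).

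Libraries share replicate numbers in the labels, which do not say whether the numbers pair them. Deviations of same-numbered libraries had a mean correlation of 0.031 over 30 pairs under the spleen label and -0.014 over 16 under the other. Libraries with different numbers had -0.0085 over 120 pairs and 0.0050 over 46. Single same-numbered pairs ran from -0.50 to 0.47 under the spleen label, and a mean near 0 cannot exclude a shared animal or batch. With a replicate block 3 members were called at 1 day and 1 at 3 days among libraries labelled spleen, and 0 at any duration among the rest. Il21 had 3 to 34 reads in the libraries labelled spleen, and the part of depth in its spread was not tested.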
